A study of Mus musculus with 2 samples.

Results

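The cells described are astrocyte-like cells in which at least 1 molecule of Gfap mRNA was counted, in single-cell RNA data from mouse brains. Barcodes passed with no fewer than 1000 UMIs (unique molecular identifiers, 1 for each captured mRNA molecule), at least 500 genes and at most 20% mitochondrial UMIs. A barcode was called astrocyte-like when Slc1a2, Slc1a3, Gja1, Ntsr2 and Slc4a4 together held at least 4 UMIs and at least 0.15% of its UMIs. A set of 6 ependymal genes had to stay under 0.3% of UMIs and a set of 4 genes of olfactory ensheathing cells under 3 UMIs. These limits left 593 astrocyte-like cells of 13745 kept barcodes in metastasis and 1456 of 13995 in naive. Gfap was detected in 52 of the 593 cells in metastasis and in 92 of the 1456 cells in naive, 144 cells of 27740 kept barcodes in all. The remaining 541 cells of metastasis and 1364 of naive had no Gfap UMI and are called Gfap-undetected. Gfap, the 5 astrocyte genes and the ependymal and ensheathing genes chose the cells, so their values are given as a description.

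Astrocytes take up glutamate and potassium, supply lactate and cholesterol, regulate synapses and line blood vessels with their endfeet. Gfap encodes the glial fibrillary acidic protein, an intermediate filament protein that assembles with vimentin, encoded by Vim. In the healthy mouse brain Gfap is abundant in astrocytes of white matter, hippocampus and the brain surface and low in most cortical grey matter. Injury, inflammation and brain tumours are known to raise both filament genes in nearby astrocytes, a state called reactive, and neural stem cells of the subventricular zone carry Gfap as well. On the GRCm38 build Gfap is the protein-coding gene at chr11:102887336-102900912 on the minus strand, and Vim is the protein-coding gene at chr2:13573927-13582826 on the plus strand.

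The metastasis group was a pool of 3 brains injected intracranially with B16/F10-BrM, a brain-seeking variant of a mouse melanoma line, and the naive group was a pool of 3 brains whose title names no tumour cells. Both were C57BL/6J mice of 10 weeks, and each pool gave 1 library after enrichment with beads against ACSA-2, the surface antigen encoded by Atp1b2. No group injected without tumour cells is among the samples, so injection and tumour cannot be told apart. After the records became public the submitters swapped their titles, and the current titles define the groups here. Each group being 1 library, differences could not be compared with animal-to-animal spread and none was tested. All intervals given are at 95% and cover counting error only. In all, 89193669 UMIs were counted in the metastasis library and 69445557 in the naive one. Melanoma genes, which the injected cells express, held 6353 CPM in near-empty barcodes of the library titled for the tumour line and 372 CPM in those of the naive one. Of the kept barcodes, 53 carried the same barcode in both libraries, 1 of them among the Gfap-detected cells (a cell of metastasis).

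Gfap was sparse in both libraries. Of the astrocyte-like cells, 8.77% (6.62 to 11.3%) had a Gfap UMI in metastasis at a median of 1847 UMIs per cell, against 6.32% (5.12 to 7.69%) in naive at a median of 1915.5, and these intervals overlap. Oligodendrocyte-like cells, the myelin-forming glia that should lack Gfap, had a Gfap UMI in 5.49% of 5995 cells in metastasis and in 3.25% of 6194 cells in naive, at higher medians of 2833 UMIs in metastasis and 3050 in naive. With every cell thinned to 1000 UMIs, the astrocyte-like shares were 4.72% (3.16 to 6.75%) in metastasis and 3.37% (2.50 to 4.42%) in naive, against oligodendrocyte-like shares of 1.62% (1.31 to 1.97%) in metastasis and 0.985% (0.754 to 1.26%) in naive. At equal depth the astrocyte-like share was therefore above the oligodendrocyte-like share in both libraries. Free RNA, taken from barcodes with 10 to 100 UMIs, held Gfap at 85.6 CPM in metastasis and at 51.6 in naive, where CPM is the usual scaling of UMIs to a common library total. All astrocyte-like cells together held Gfap at 105.5 CPM (metastasis) and 42.5 CPM (naive).

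Detection went with depth. Among astrocyte-like cells of at least 1000 and under 2000 UMIs, Gfap was detected in 5.26% in metastasis and 4.64% in naive. Among those of 4000 UMIs and more it was detected in 22.7% (13.3 to 34.7%) in metastasis and 13.6% (8.29 to 20.7%) in naive. The oligodendrocyte-like shares at that depth were 10.3% (8.82 to 12%) in metastasis and 5.84% (4.73 to 7.13%) in naive. Gfap-detected cells were deeper than Gfap-undetected cells, with medians of 2545.5 against 1806 UMIs in metastasis and 2306.5 against 1892 UMIs in naive.

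**Figure D1:**
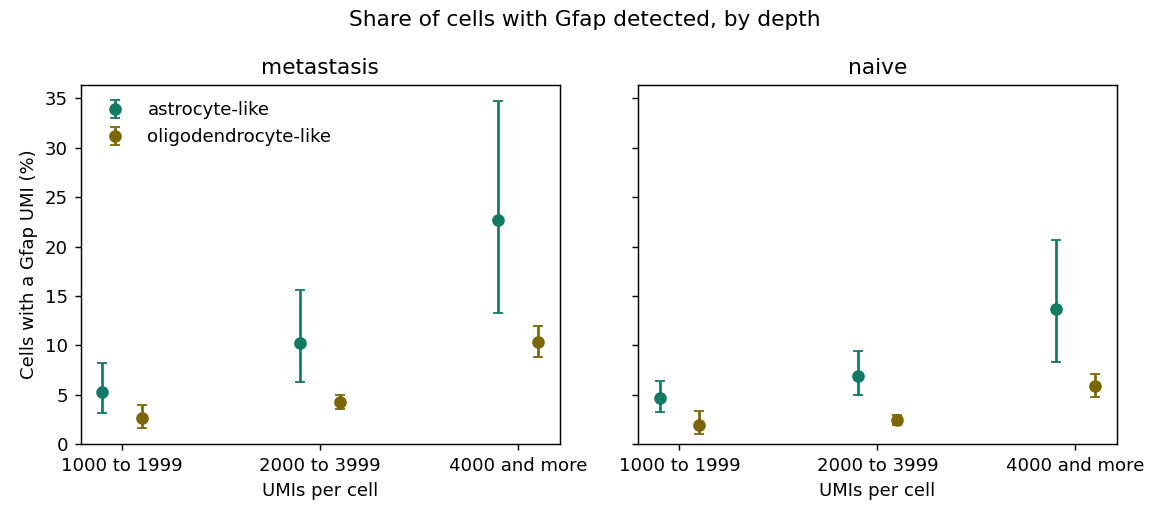
Percent of cells with at least 1 Gfap UMI (vertical axis) in 3 bands of UMIs per cell (horizontal axis), for astrocyte-like and oligodendrocyte-like cells of metastasis (left) and naive (right). Points are shares and bars are exact 95% intervals of counting error. In each band of both libraries the astrocyte-like point lies above the oligodendrocyte-like one, and both classes are higher in the deepest band, where the astrocyte-like shares are 22.7% in metastasis and 13.6% in naive.

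Gfap chose the cells, so its UMIs per cell are given as a description. As counted, without equal depth, they differed more between the libraries than the share of cells did. Each library's Gfap-detected cells held 144 Gfap UMIs in all, which is 886 CPM in metastasis against 553 CPM in naive. In metastasis 36 cells had 1 Gfap UMI, 5 had 2 and 11 had at least 4. In naive 73 cells had 1, 11 had 2, 4 had 3 and 4 had at least 4. Cells at the limit of 1 UMI therefore made up most of the set in both libraries, next to the cells just outside it at 0, 541 in metastasis and 1364 in naive. Among astrocyte-like cells, those with at least 4 Gfap UMIs made up 1.85% (0.930 to 3.29%) in metastasis against 0.275% (0.0749 to 0.702%) in naive, and these intervals do not overlap. With every cell thinned to 1000 UMIs the share was 0.506% (0.104 to 1.47%), or 3 cells, in metastasis against 0.137% (0.0166 to 0.495%), or 2 cells, in naive, and the intervals overlap. In oligodendrocyte-like cells such cells were 12 of 5995 in metastasis and 2 of 6194 in naive. The 4000-UMI band held 8 of the 11 cells in metastasis and 1 of the 4 in naive.

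The astrocyte label was checked against markers that the limits did not use. Aqp4, the water channel of the endfeet, was found in 32 of 52 metastasis cells and 49 of 92 naive cells. All 14 astrocyte markers outside the limits had UMIs in both libraries, a low bar for sums over 52 and 92 cells. Together they held 8371 CPM in metastasis against 11522 CPM in naive, with free RNA at 1409 and 2144.5 CPM. Gfap-undetected cells held 10169 CPM of them in metastasis and 12403 CPM in naive. Cells with at least 4 Gfap UMIs held 5669 CPM in metastasis and 15222 CPM in naive. That naive value is from 4 cells, 1 of which had 141 UMIs of these markers. The genes of the limits chose the cells, so their detection is given as a description. Slc1a2, the main glutamate transporter of the forebrain, was detected in 51 of 52 metastasis cells and 84 of 92 naive cells, and Slc1a3, a second glutamate transporter, in 50 of 52 in metastasis and 87 of 92 in naive. Gja1, the gap junction protein connexin 43, was found in 39 of 52 metastasis cells and 77 of 92 naive cells. In metastasis 30 of 52 cells had the 5 limit genes at 0.5% of UMIs or more, against 73 of 92 in naive. Some cells lay close to the limits of 4 UMIs and 0.15%. Fewer than 6 UMIs of these genes were found in 1 cell of metastasis and 8 of naive. They took under 0.225% of UMIs in 6 of 52 metastasis cells, 2 of them with at least 4 Gfap UMIs, and in 6 of 92 naive cells, 1 of them with at least 4. Some cells also carried markers of another type. Oligodendrocyte markers reached 1% of UMIs in 7 of 52 metastasis cells and 13 of 92 naive cells, and microglia markers in 1 cell of metastasis and 2 of naive. A doublet caller marked 8 of 52 metastasis cells (15.38%) and 11 of 92 naive cells (11.96%). It marked 48 of 541 Gfap-undetected cells in metastasis and 130 of 1364 in naive. Of all kept barcodes it marked 4.998% in metastasis and 6.352% in naive. The marked share was thus higher in Gfap-detected cells than in all kept barcodes of both libraries, and this difference was not tested. Gfap-undetected astrocyte-like cells carried markers of another type too, with oligodendrocyte markers at 1% in 62 of 541 in metastasis and 163 of 1364 in naive.

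The 11 metastasis cells with at least 4 Gfap UMIs can be given one by one. The cell with 20 Gfap UMIs held 37 UMIs of Vim, 34 of Fabp7, a fatty acid binding protein of radial glia and immature astrocytes, and 12 of Olig1, a transcription factor of the oligodendrocyte lineage. The cell with 16 Gfap UMIs held 6 of Vim, 15 of S100a6 and 11 of Tagln, an actin-binding protein. The cell with 11 held 14 of Vim, 35 of Fabp7, 34 of Slc1a2 and 24 of Ifitm3, an interferon-induced antiviral membrane protein. The cell with 16 held 4 of Fabp7, so that Vim and Fabp7 were found in all 3 of these cells.

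The cell with 10 Gfap UMIs held the most Vim, 48 UMIs, with 45 of Nupr1, a stress-induced chromatin protein, 28 of Tm4sf1, a membrane protein of motile cells, and 19 of Lgals3, the lectin galectin 3. The doublet caller marked it. The cell with 9 Gfap UMIs held 6 of Vim beside 185 UMIs of microglia markers, among them 59 of C1qa, and 85 of the chemokine gene Ccl4, and was also marked. The cell with 8 Gfap UMIs was shallow, at 1329 UMIs, and held 7 of Vim. None of these 3 had a Fabp7 to Vim ratio above 1.

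The cell with 6 Gfap UMIs held 37 of Vim and 81 of Fabp7. Of both cells with 5 Gfap UMIs, one held 40 of Vim, 54 of Fabp7 and 82 of interferon response genes, and the other held 5 of Vim and 14 of Fabp7. Of both cells with 4, one held 11 of Vim and 90 of cell cycle genes. The other held no Vim and no Fabp7 but 37 of Clu and 32 of the 5 limit genes, and was the sole cell of the 11 without Vim.

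Of the 4 naive cells with at least 4 Gfap UMIs, 2 held Myoc, which none of the 11 metastasis cells did. The cell with 12 Gfap UMIs held 9 of Myoc, a secreted protein found in astrocytes of the brain surface and the optic nerve head, and 6 of Aqp4. The cell with 11 held 14 of Myoc, with 93 UMIs of microglia markers, and each of these cells had 1 Vim UMI. The cell with 10 Gfap UMIs had 24 of Aqp4, 42 of Glul, the glutamine synthetase gene, 69 of Slc1a2 and 6 of Vim. The cell with 4 had 7 of Gja1 and 1 of Vim. Fabp7 had 3, 0, 13 and 5 UMIs in the naive cells with 12, 11, 10 and 4 Gfap UMIs. All Myoc UMIs of naive Gfap-detected cells, 23, came from the first 2 of these cells, which had 6 and 5 UMIs of the limit genes.

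**Figure D2:**
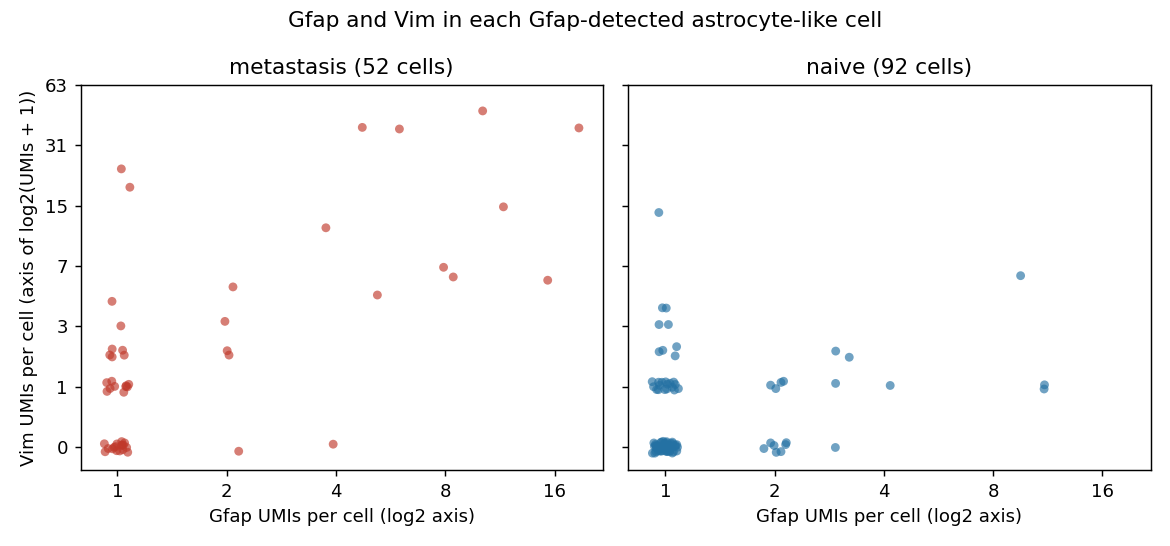
Gfap UMIs (horizontal log2 axis) and Vim UMIs (vertical axis of log2(UMIs + 1)) of each Gfap-detected astrocyte-like cell, 52 in metastasis (left) and 92 in naive (right), with a small random shift so that points do not hide each other. Of the 11 metastasis cells with at least 4 Gfap UMIs, 10 have 5 or more Vim UMIs, and of the 4 such naive cells 1 has.

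Vim was higher in cells with at least 4 Gfap UMIs than in cells with none, in both libraries. In metastasis it stood at 353 CPM (320 to 388) in cells with no Gfap UMI, 721 CPM (560 to 915) with 1, 876 CPM (452 to 1530) with 2 or 3 and 3871 CPM (3367 to 4430) with at least 4. In naive it stood at 151 CPM (138 to 166) with none, 256 CPM (192 to 334) with 1, 214 CPM (98.0 to 407) with 2 or 3 and 825 CPM (377 to 1567) with at least 4. Fabp7 stood at 718 CPM with none, 1040 CPM with 1 and 5339 CPM (4743 to 5989) with at least 4 in metastasis, and at 682 CPM with none, 531 CPM with 1 and 1926 CPM with at least 4 in naive.

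Interferon response genes, a list of 27 that includes antiviral effectors and guanylate-binding proteins, held 1482 CPM (1414 to 1552) in metastasis cells with no Gfap UMI and 1570 CPM (1327 to 1845) in those with 1, and these intervals overlap. Metastasis cells with at least 4 Gfap UMIs held 5027 CPM (4449 to 5659) of them. In naive the list held 462 CPM with none, 381 CPM with 1 and 275 CPM with at least 4. That last value rests on 0, 2, 1 and 0 UMIs in the naive cells with 12, 11, 10 and 4 Gfap UMIs. The 5 limit genes were lowest in metastasis cells with at least 4 Gfap UMIs, at 4403 CPM (3864 to 4997). They stood there at 9792 CPM with none, 8880 CPM with 1 and 10726 CPM with 2 or 3. In naive they stood at 11074 CPM with none, 11007 CPM with 1, 9767 CPM with 2 or 3 and 13572 CPM with at least 4. The naive cells with 12, 11, 10 and 4 Gfap UMIs held 6, 5, 120 and 17 UMIs of the limit genes. Most of that last naive value thus came from 1 cell. Among the 11 cells of metastasis the limit genes took a median of 0.388% of UMIs, and 3 of the 11 reached 0.5%. Among the 4 cells of naive the median was 0.809%. All Gfap-detected cells had medians of 0.716% in metastasis and 0.995% in naive.

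Depth moved with these differences. The 11 cells had a median of 5102 UMIs, against 2276 UMIs in the other 41 Gfap-detected cells of metastasis. Metastasis cells with no Gfap UMI and at least 4000 UMIs, 51 cells, held Vim at 662 CPM (572 to 761), Fabp7 at 391.6 CPM (324 to 470), interferon response genes at 2458 CPM (2283 to 2643) and the limit genes at 3373 CPM. Gfap-detected cells of that depth, 15 in metastasis, held Vim at 2984 CPM (2624 to 3380), Fabp7 at 4079 CPM, interferon response genes at 4223 CPM (3793 to 4689) and the limit genes at 3658 CPM. Within this band Vim, Fabp7 and the interferon genes were thus higher in the cells with Gfap, but depth was not matched, reaching 8118 UMIs in Gfap-detected and 14413 UMIs in Gfap-undetected cells. Deep Gfap-undetected cells also held oligodendrocyte markers at 13896 CPM, against 2840 CPM in deep Gfap-detected cells. The part of depth and of mixed cells in these values was not tested.

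**Figure D3:**
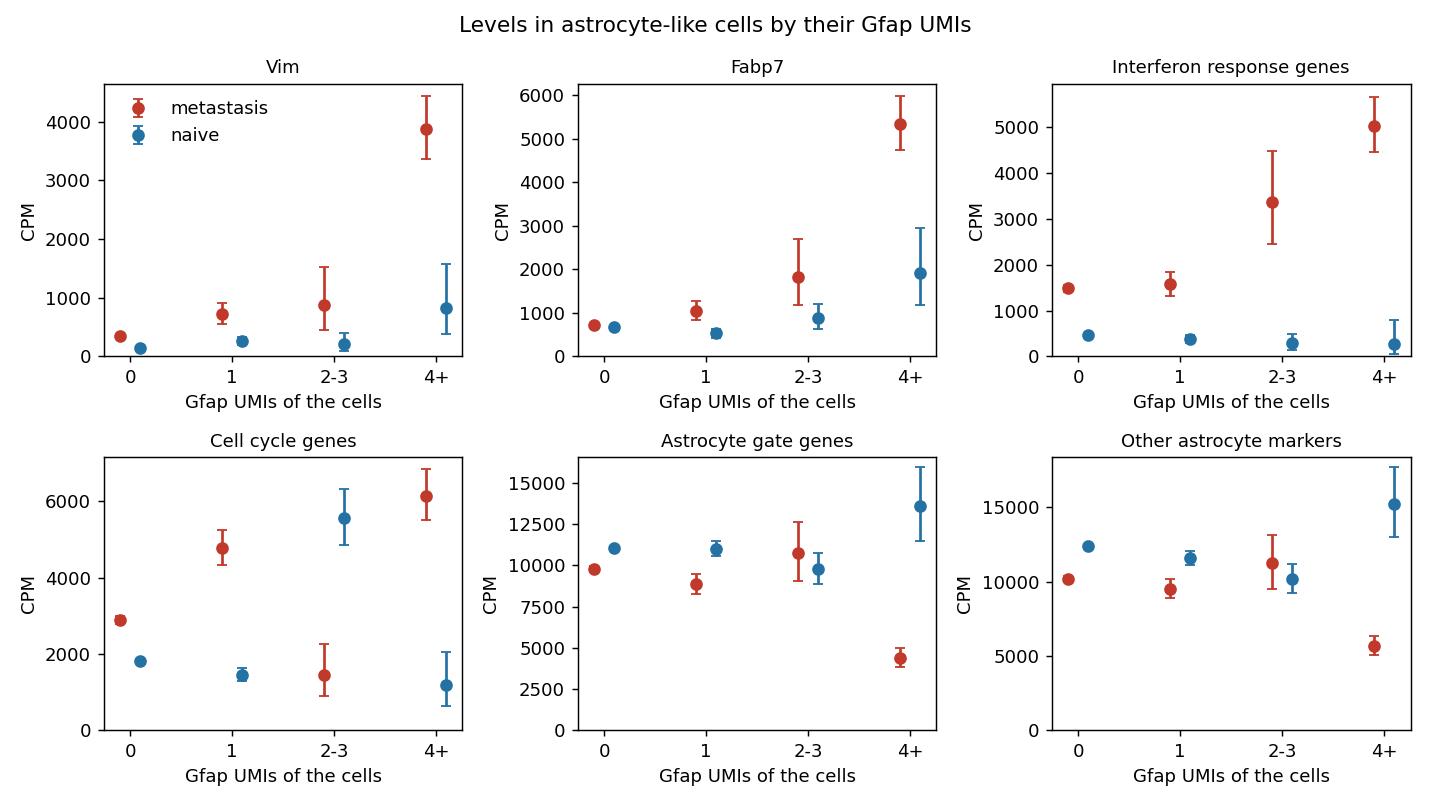
Levels in CPM (vertical axes, from 0) of Vim, Fabp7 and 4 gene lists in astrocyte-like cells grouped by their Gfap UMIs (horizontal axes), with metastasis in red and naive in blue. Points are UMIs summed over the cells of a group and bars are 95% Poisson intervals of counting error. In metastasis Vim reaches 3871 CPM and Fabp7 5339 CPM at 4 or more Gfap UMIs while the limit genes stand at 4403 CPM, and the naive group at 4 or more is 4 cells.

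Metastasis and naive were then compared over all Gfap-detected cells, as UMIs summed over 52 cells (162464 UMIs) and 92 cells (260198 UMIs). A gene was counted with at least 20 UMIs over both libraries, and a 2-fold difference is a rule of size. Of the 4144 genes counted, 374 (9.03%) were at least 2-fold higher in metastasis and 273 (6.59%) at least 2-fold lower, with a median log2 ratio over all of them of 0.08. In Gfap-undetected cells 4.83% of 12620 genes were at least 2-fold higher and 2.5% lower. Low sums spread ratios by counting error alone, and the Gfap-detected sums are the smaller ones. TMM, a scaling that trims extreme genes, moved the median over all genes to -0.08 and the share of higher genes among those past 2-fold from 57.8 to 39.9%. Log2 ratios below are metastasis over naive unless stated, and the difference between Gfap-detected and Gfap-undetected ratios was not tested.

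Vim was the filament gene that stood out. Gfap-detected cells held 291 Vim UMIs in metastasis and 71 in naive, or 1791 against 273 CPM, a log2 ratio of 2.71 (2.34 to 3.11), and in Gfap-undetected cells it was 1.22 (1.03 to 1.41). Single cells ran from 0 to 48 UMIs with a median of 1 in metastasis and from 0 to 14 with a median of 0 in naive, so the ranges overlap at the low end. The 11 cells with at least 4 Gfap UMIs held 72.5% of the Vim UMIs and 33.5% of all UMIs of the metastasis cells. Without cells of at least 4 Gfap UMIs in either library the ratio was 1.58 (1.08 to 2.08), and with the limit genes at 0.5% of UMIs or more, in 30 cells of metastasis and 73 of naive, it was 1.34 (0.72 to 1.95). Gfap itself, which chose the cells, was at a log2 ratio of 0.68 (0.34 to 1.02). Of the 7 filament and lamina genes listed, 3 reached 20 UMIs, and besides Vim these were within 2-fold, with Lmna, a lamin gene, at 0.81 and Plec, which links filaments, at 0.21.

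Most other genes of the pan-reactive astrocyte list were barely counted, and Vim alone of its 12 reached 20 UMIs. Cd44, a hyaluronan receptor of reactive and fibrous astrocytes, had 14 UMIs in 8 cells of metastasis and 1 UMI in naive, a log2 ratio of 4.49 (1.77 to 9.89). Serpina3n, a protease inhibitor gene induced in reactive astrocytes, had 4 UMIs in metastasis and 1 in naive (log2 ratio 2.68, -0.66 to 8.30). Timp1, an inhibitor of metalloproteinases, had 4 UMIs in metastasis and 0 in naive. Lcn2, the iron-siderophore carrier lipocalin 2, had 2 UMIs in metastasis and 0 in naive, and Cd274, the gene of PD-L1, had 1 in metastasis and 0 in naive. At these sums, differences in Serpina3n, Lcn2 and Cd274 were not detectable at this depth. Stat3, the transcription factor that drives Gfap transcription in reactive astrocytes, had 17 UMIs in 14 cells of metastasis and 10 UMIs in 9 cells of naive, a log2 ratio of 1.45 (0.24 to 2.73). C4b, a complement gene raised in reactive astrocytes, was at 0.97 (-0.44 to 2.42) and S100a6, a calcium-binding protein, at 0.57 (0.14 to 1.0).

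Interferon response genes were higher in metastasis. The 27 genes together held 468 UMIs in metastasis and 94 in naive, or 2881 against 361 CPM, a log2 ratio of 3.00 (2.67 to 3.33), and in Gfap-undetected cells the ratio was 1.68 (1.58 to 1.78). The list took a median of 0.10% of a cell's UMIs in metastasis, up to 2.02%, and a median of 0.0264% in naive, up to 0.859%. It reached 0.2% of UMIs in 14 of 52 metastasis cells and 2 of 92 naive cells. Ifitm3 had 167 UMIs in 28 cells of metastasis and 17 UMIs in 14 cells of naive (log2 ratio 3.98, 3.25 to 4.79). Bst2, the antiviral protein tetherin, had 49 UMIs in 14 cells of metastasis and 7 UMIs in 7 cells of naive (3.49, 2.34 to 4.87). Ifit1 and Ifit3, which bind viral RNA or its sensors, had 21 and 19 UMIs in metastasis and 2 UMIs each in naive. Of the 27 genes, 6 reached 20 UMIs over both libraries and all 6 were at least 2-fold higher. A gene such as Ifit1 passes this rule through metastasis alone, so that count adds no support to the summed ratio. The list's ratio was 2.30 (1.93 to 2.67) without cells of at least 4 Gfap UMIs and 2.84 (2.39 to 3.31) with the limit genes at 0.5% or more. Free RNA held the list at 2947 CPM in metastasis against 1179 CPM in naive. From the melanoma genes and from Ttr, free RNA was estimated at 0.0562 and 0.0955 of the UMIs of these metastasis cells.

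The 19 listed genes of antigen processing and MHC class I held 1797 CPM in metastasis against 427 CPM in naive, with a log2 ratio of 2.07 (1.75 to 2.40), and the ratio in Gfap-undetected cells was 1.76 (1.67 to 1.86). H2-D1 and H2-K1, both class I heavy chains, were at 3.65 (2.51 to 5.03) and 1.89 (1.24 to 2.57), and B2m, the light chain, at 2.94 (2.09 to 3.88). Of 5 list genes that reached 20 UMIs over both libraries, 4 were at least 2-fold higher, but a gene can reach this sum through metastasis alone. None of the 5 stood at or above the free RNA of metastasis, where the list held 3336 CPM. The cell with 185 microglia-marker UMIs held 64 of the 292 UMIs of the list in metastasis.

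Some genes of immature glia were also higher in metastasis, and this set of genes was picked after its values had been seen. Fabp7 had 414 UMIs in 32 cells of metastasis and 168 UMIs in 45 cells of naive, a log2 ratio of 1.98 (1.72 to 2.25), while in Gfap-undetected cells it was 0.07 (-0.04 to 0.19). Its ratio was 0.95 (0.59 to 1.31) without cells of at least 4 Gfap UMIs. Lgals1, the lectin galectin 1, had 105 UMIs in 17 cells of metastasis and 18 UMIs in 14 cells of naive (3.22, 2.49 to 4.03), and 0.29 (-1.36 to 1.74) with the limit genes at 0.5% or more. Sox11, a transcription factor of progenitors and young neurons, was at 0.98 (0.19 to 1.78). The list of 9 neural stem and progenitor genes, which holds Sox11, was at 0.17 (-0.13 to 0.47), an interval that includes 0. In Gfap-undetected cells that list was at 0.46 (0.35 to 0.56). It reached 0.2% of UMIs in 7 of 52 metastasis cells and 11 of 92 naive cells.

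A list of 17 cell cycle genes, also chosen after values had been seen, held 4955 CPM in metastasis against 2102 CPM in naive (log2 ratio 1.24, 1.08 to 1.40). In Gfap-undetected cells the ratio was 0.66 (0.60 to 0.72). Free RNA held the list at 4294 CPM in metastasis against 1577 CPM in naive, and 6 of the 11 genes counted stood at or above free RNA. Ccnd1, a cyclin of the G1 phase, had 74 UMIs in 12 cells of metastasis and 6 UMIs in 5 cells of naive (4.30, 3.11 to 5.80). Ccnd2, its paralog, was at 1.24 (0.85 to 1.63), Hmgb2, a chromatin protein of dividing cells, at 1.60 (0.91 to 2.32) and Tubb5, a tubulin, at 1.35 (0.87 to 1.85). The list took at least 0.5% of UMIs in 9 of 52 cells in metastasis, 5 of them with at least 4 Gfap UMIs, and in 3 of 92 cells in naive. The 3 richest cells held 35.9% of its UMIs in metastasis and 47.0% in naive. One naive cell with 2 Gfap UMIs had 147 of them, with 21 of Ccnd2 and 10 of Pclaf, a replication clamp partner. Such cells were thus present in both libraries, at 17.3% (8.23 to 30.3%) in metastasis and 3.26% (0.678 to 9.23%) in naive.

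Some other genes among the highest by the ranking rule rested on few cells. Ccl4 had 88 UMIs in metastasis and 4 in naive, and 85 of the 88 were in the cell rich in microglia markers. Nupr1 had 55 UMIs in metastasis and 13 in naive, with 45 of the 55 in one cell. Slc5a3, a myo-inositol transporter, had 36 UMIs in metastasis and 15 in naive, with 22 of the 36 in one cell. Egr1, an immediate early transcription factor, had 44 UMIs in 13 cells of metastasis and 15 UMIs in 10 cells of naive (2.23, 1.36 to 3.18). Rtn1, a reticulon of the endoplasmic reticulum, had 48 UMIs in 21 cells of metastasis and 22 UMIs in 19 cells of naive (1.80, 1.05 to 2.60), and Clic1, a chloride channel protein, was at 1.79 (1.07 to 2.56). Mrps6, a subunit of the mitochondrial ribosome, was at 2.10 (1.32 to 2.95). Slc5a3 lies within the coordinates of Mrps6 on the same strand, and whether their counts are independent was not tested.

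Genes of normal astrocyte function were slightly lower in metastasis. All 26 genes of the homeostatic list reached 20 UMIs and none differed by 2-fold, their median log2 ratio being -0.44, against 0.08 over all genes counted and -0.28 for the list in Gfap-undetected cells. Glul was at -0.89 (-1.16 to -0.63), Sparcl1, a secreted synapse-organising protein, at -0.84 (-1.04 to -0.65), and Cldn10, a claudin, at -0.99 (-1.41 to -0.58). Aqp4 was at -0.16 (-0.55 to 0.21) and Mlc1, a membrane protein of the endfeet, at 0.50 (0.05 to 0.94). The list's median was 0.061 with the limit genes at 0.5% of UMIs or more and -0.24 without cells of at least 4 Gfap UMIs. Among the limit genes, given as a description, Ntsr2, a neurotensin receptor, was at -1.10 (-1.56 to -0.65), Slc4a4, a bicarbonate transporter, at -0.77, Gja1 at -0.56, Slc1a3 at -0.51 and Slc1a2 at -0.43. Apoe, the lipid carrier, was at -0.33 (-0.40 to -0.25) and Clu, the chaperone clusterin, at -0.97 (-1.15 to -0.79).

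The lowest ratios by the ranking rule included genes of mature astrocytes. Grm3, a metabotropic glutamate receptor, had 11 UMIs in 9 cells of metastasis and 65 UMIs in 35 cells of naive (log2 ratio -1.88, -2.95 to -0.95). Gpc5, a glypican of astrocytes, had 12 UMIs in metastasis and 49 in naive (-1.35, -2.40 to -0.42), and Kcnk1, a potassium leak channel, had 24 in metastasis and 101 in naive (-1.39, -2.10 to -0.74). The adhesion genes Cadm2 and Pcdh9 were at -1.43 (-2.23 to -0.70) and -1.30 (-2.05 to -0.62). Mgp, a calcification inhibitor, had 8 UMIs in 7 cells of metastasis and 87 UMIs in 7 cells of naive (-2.76, -4.02 to -1.72), with 68 of the 87 in one cell, and in Gfap-undetected cells it was higher in metastasis at 0.82 (0.71 to 0.93). Pak1, Pex5l, Rnf13, Epb41l3 and Eps15 lay between -1.75 and -1.32. Oligodendrocyte markers were also lower when summed over the Gfap-detected cells, at 4346 CPM in metastasis against 10415 CPM in naive. Of 8 markers 7 were at least 2-fold lower, with a median of -1.13, beside 6.59% of all genes counted. These sums leaned on few cells, the 3 richest holding 49.3% of the list in metastasis and 41.4% in naive. The median share per cell was 0.0859% (metastasis) against 0.120% (naive). The list reached 1% in 13.5% of metastasis cells and 14.1% of naive cells. Pex5l peaked at 4 UMIs in a metastasis cell and at 10 in a naive cell. The part of oligodendrocyte RNA in the lower genes was not tested.

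Genes that mark the region an astrocyte comes from were counted as well. Lhx2 and Mfge8, higher in astrocytes of the forebrain, were at -0.60 (-1.32 to 0.08) and -0.25 (-0.56 to 0.05). Agt, Itih3 and Slc6a9, higher in astrocytes of the brainstem and diencephalon, held 23 UMIs in metastasis and 97 in naive, or 142 against 373 CPM (-1.40, -2.12 to -0.73), and in Gfap-undetected cells the ratio was -0.52 (-0.67 to -0.37). Agt, which encodes angiotensinogen, was at -1.42 (-2.58 to -0.41) and Itih3 at -2.17 (-3.88 to -0.81). Myoc had 3 UMIs in 1 cell of metastasis and 23 UMIs in 2 cells of naive (-2.26, -4.64 to -0.53). Without cells of at least 4 Gfap UMIs it had 3 UMIs in metastasis and 0 in naive. Id3, an inhibitor of differentiation factors that is higher in fibrous astrocytes, was at 0.40 (-0.05 to 0.84).

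Among the remaining lists, the STAT3 pathway list of 13 genes had a summed log2 ratio of 1.09 (0.78 to 1.41), near the 0.99 (0.90 to 1.09) of Gfap-undetected cells, with Junb and Cebpd, both targets of the pathway, at 2.31 (1.25 to 3.50) each. Immediate early genes were at 0.84 (0.62 to 1.06) and at 0.93 (0.86 to 1.0) in Gfap-undetected cells. Genes first described in astrocytes after lipopolysaccharide (the A1-type list) were at 2.59 (2.0 to 3.22), with H2-D1 the sole member of 12 that reached 20 UMIs. Those first described after ischaemia (the A2-type list) were at 1.93 (1.44 to 2.44), with Tm4sf1 at 3.33 (2.17 to 4.73), 28 of its 44 UMIs being in one cell. Actin, annexin and S100 genes were at 0.80 (0.71 to 0.90), heat shock genes at 0.27 (0.07 to 0.46), glycolysis and hypoxia genes at 0.30 (0.02 to 0.58) and cholesterol genes at 0.03 (-0.23 to 0.28). Metallothioneins, which bind zinc and copper, were lower at -0.65 (-0.76 to -0.54), with Mt1 at -0.78 (-0.94 to -0.63) and Mt3 at -0.45 (-0.62 to -0.28). Extracellular matrix genes were lower at -0.55 (-0.69 to -0.41), complement genes stood at 0.54 (-0.44 to 1.5), and MHC class II genes had 24 UMIs in metastasis and 9 in naive (2.09, 0.94 to 3.38).

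**Figure D4:**
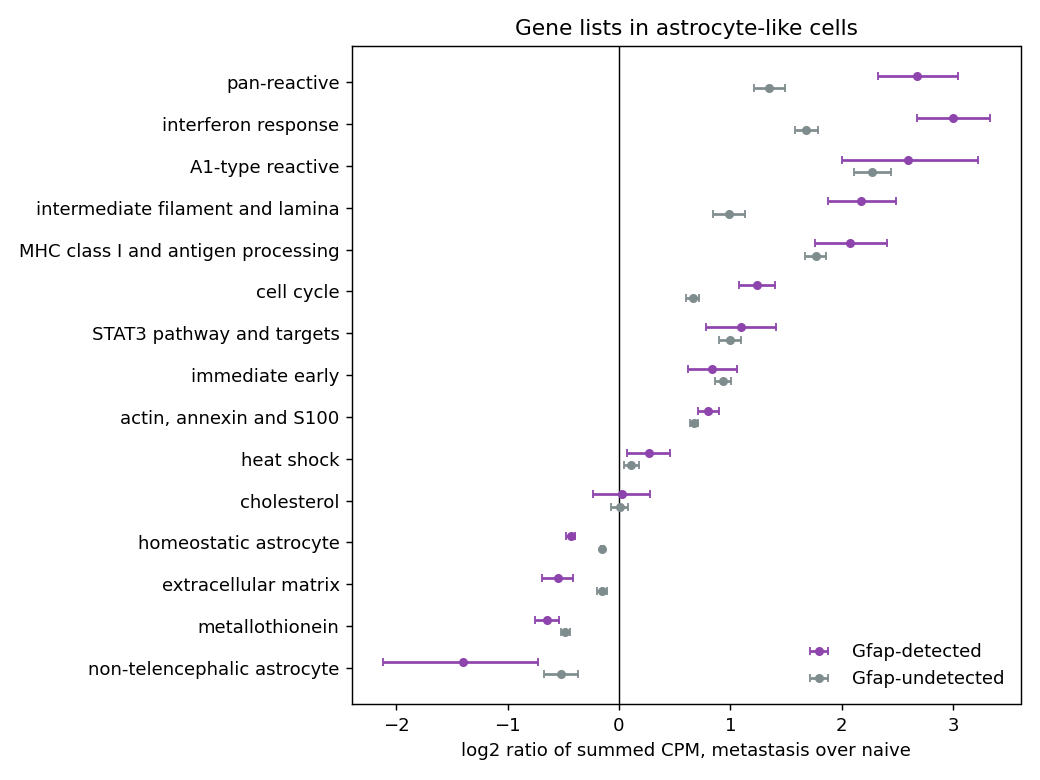
Log2 ratio of summed CPM, metastasis over naive (horizontal axis), of gene lists in Gfap-detected (purple) and Gfap-undetected (grey) astrocyte-like cells, with 95% intervals of counting error. The interferon response list lies at 3.00 in Gfap-detected and 1.68 in Gfap-undetected cells and the pan-reactive list, mostly Vim, at 2.68 and 1.35, while the STAT3, immediate early and cholesterol lists lie close together in both.

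Markers of other cells moved with the metastasis and naive groups. Melanoma markers were detected in 35 of 52 cells in metastasis, at up to 0.296% of UMIs and 357 CPM in sum, and in 4 of 92 in naive, at 15.4 CPM, with Tyr at 0 in both. Macrophage and monocyte markers were at 566 CPM in metastasis against 92.2 CPM in naive, with Ccr2 at 0 in both. Microglia markers were at 1748 CPM, up to 2.68% of a cell, in metastasis and 915 CPM, up to 3.36%, in naive, and none of the 9 was at 0 in either. Choroid plexus markers, nearly all Ttr, were at 7608 CPM in metastasis against 15027 CPM in naive. With both oligodendrocyte and microglia markers under 1% of UMIs, in 44 cells of metastasis and 77 of naive, the log2 ratio was 2.86 (2.43 to 3.32) for Vim, 2.93 (2.56 to 3.32) for the interferon list, 1.79 (1.52 to 2.06) for Fabp7 and 1.68 (1.31 to 2.06) for the MHC class I list.

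Gfap-detected cells were last set against Gfap-undetected cells within each library, leaving out the genes that chose the cells. In metastasis 535 of 9140 genes (5.85%) were at least 2-fold higher in Gfap-detected cells and 1058 (11.6%) lower, and in naive 482 of 11718 (4.11%) were higher and 983 (8.39%) lower. In both libraries 21 of 9025 genes (0.233%) were at least 2-fold higher and 107 (1.19%) lower. Higher genes were 16.4% of these calls, and 5.36% under TMM, which moved the median over all genes from 0.01 to -0.16 in metastasis and from 0 to -0.13 in naive. Small sums on the Gfap-detected side leave these counts imprecise.

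Vim was higher in Gfap-detected cells of both libraries, with a log2 ratio of Gfap-detected over Gfap-undetected cells of 2.34 (2.12 to 2.56) in metastasis and 0.85 (0.47 to 1.21) in naive. C4b was at 1.44 (0.29 to 2.48) in metastasis and 1.55 (0.31 to 2.63) in naive, from 11 UMIs in Gfap-detected cells of metastasis and 9 in those of naive. Cd44 was at 2.37 (1.27 to 3.43) in metastasis, with 14 UMIs in Gfap-detected and 20 in Gfap-undetected cells, and had 1 UMI in Gfap-detected and 25 in Gfap-undetected cells of naive. Myoc was found in Gfap-detected cells at 3 UMIs, against 0 in Gfap-undetected cells, in metastasis, and at 23 UMIs, against 28 in the 1364 Gfap-undetected cells, in naive. S100a6 was at 0.92 (0.57 to 1.25) in metastasis and 0.44 (0.13 to 0.75) in naive, and Aqp4 at 0.41 (0.07 to 0.73) in metastasis and 0.28 (0.04 to 0.51) in naive. Agt was lower with Gfap, at -1.37 (-2.45 to -0.46) in metastasis and -0.67 (-1.15 to -0.23) in naive. Stat3 was at 0.80 (-0.05 to 1.58) in metastasis and -0.15 (-1.24 to 0.78) in naive.

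The genes highest with Gfap in both libraries had few UMIs. Ppp1r1a, an inhibitor of protein phosphatase 1, was at 2.27 (1.14 to 3.34) in metastasis and 1.18 (0.20 to 2.05) in naive, from 13 UMIs each in Gfap-detected cells. Bex1, a small brain-expressed X-linked adaptor, was at 2.26 (1.02 to 3.44) in metastasis and 1.14 (-0.07 to 2.18) in naive, and Bhlhb9 at 1.30 (0.31 to 2.20) in metastasis and 1.04 (0.14 to 1.83) in naive. Cfap54, a gene of motile cilia, was at 1.60 (0.29 to 2.77) in metastasis and 1.15 (0.13 to 2.05) in naive. Ependymal cells carry both cilia and Gfap, and the 10 ependymal markers outside the limits were at 0.68 (0.25 to 1.09) in metastasis and 0.23 (-0.10 to 0.54) in naive, at 363 CPM in Gfap-detected cells of metastasis and 346 CPM in those of naive. The part of ependymal RNA was not tested.

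The genes lowest with Gfap in both libraries included haemoglobin genes and genes of other lineages. Hbb-bs, a haemoglobin gene of red blood cells, had 2 UMIs in Gfap-detected against 707 in Gfap-undetected cells of metastasis and 20 against 2955 in naive. One Gfap-undetected cell held 659 of the 707, and 4 cells held 2682 of the 2955. Hba-a1, Hba-a2 and Hbb-bt were spread in the same way. Ccn3, a matricellular protein, was at -4.23 (-9.55 to -1.73) in metastasis and -1.47 (-2.49 to -0.62) in naive, and Klk6, a serine protease of oligodendrocytes, at -2.47 in both. Ogn, a proteoglycan of fibroblasts, had 0 UMIs against 44 in metastasis and 1 against 105 in naive, and Foxp2 had 0 against 48 in metastasis and 2 against 109 in naive. Fibroblast markers as a list were at -2.09 (-2.93 to -1.35) in metastasis and -2.01 (-3.02 to -1.16) in naive, and mural markers at -1.55 (-2.16 to -0.99) in metastasis and -0.95 (-1.5 to -0.45) in naive. Endothelial markers were at -0.56 (-1.37 to 0.16) in metastasis and -2.54 (-3.86 to -1.48) in naive. The shares of cells with a UMI lay closer together. Fibroblast markers were found in 6 of 52 Gfap-detected and 66 of 541 Gfap-undetected cells of metastasis, and in 6 of 92 and 119 of 1364 such cells of naive. Mural markers were found in 14 of 52 Gfap-detected and 128 of 541 Gfap-undetected cells of metastasis, and in 23 of 92 and 366 of 1364 such cells of naive. The highest cell held fibroblast markers at 0.272% of UMIs with Gfap and 1.40% without in metastasis, and at 0.105% with Gfap and 2.12% without in naive.

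By list, the pan-reactive genes were at 1.62 (1.44 to 1.81) in Gfap-detected over Gfap-undetected cells of metastasis and at 0.30 (-0.04 to 0.62) in naive. Vim held 291 of the 335 UMIs of the list in Gfap-detected cells of metastasis and 71 of the 84 in those of naive. Without Vim the list was at -0.22 (-0.71 to 0.23) in metastasis and -1.15 (-2.07 to -0.36) in naive. Of the 8 list genes counted in metastasis 2 were at least 2-fold higher and 3 lower, and of the 8 counted in naive 1 was higher and 3 were lower, with a median of 0.51 in metastasis and -0.73 in naive. Over all genes counted, 5.85% were higher and 11.6% lower in metastasis, and 4.11% were higher and 8.39% lower in naive. Cell cycle genes were at 0.78 (0.67 to 0.89) in metastasis and 0.20 (0.07 to 0.33) in naive. Genes of fibrous and subpial astrocytes were at 0.64 (0.55 to 0.72) in metastasis and 0.19 (0.13 to 0.26) in naive. MHC class I genes were at 0.09 (-0.09 to 0.27) in metastasis and -0.22 (-0.51 to 0.06) in naive, intervals that include 0. MHC class II genes were lower with Gfap in metastasis, at -2.32 (-2.97 to -1.74), with 24 UMIs in Gfap-detected and 889 in Gfap-undetected cells, and at 0.25 (-0.92 to 1.24) in naive. Macrophage and monocyte markers were at -1.30 (-1.62 to -0.99) in metastasis and -0.58 (-1.24 to 0.01) in naive, and microglia markers at -0.63 (-0.81 to -0.46) in metastasis and -0.05 (-0.24 to 0.14) in naive. Their part in the MHC class II values was not tested.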

How the data were processed

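Brains were dissociated, depleted of myelin on Percoll and enriched with ACSA-2 beads, and about 10000 cells per condition were loaded for 10x 3' v3 libraries, per the labels' protocols. Each deposited matrix gives raw UMI counts, neither normalized nor filtered, for 55401 genes and 6794880 barcodes per library. The authors used STARsolo and GRCm38, per the submitters' processing notes; their version and annotation are not given in the sources used here. Coordinates come from GENCODE M21.

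The members, the 39 gene lists and the ranking rule were chosen with earlier results of these data known. Named genes were 20 fixed ones, the 12 highest and 12 lowest of each ranking (ratios with 10 CPM added; at least 50 UMIs and at or above free RNA for metastasis over naive, at least 20 UMIs per library otherwise), and up to 4 per list; some are not reported here. Cell cycle and immature glia genes, and Apoe, Ccnd2, Clu and single cells' genes, were added after values were seen.

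Counts were summed per class and library and divided by all UMIs (CPM). Ratios carry exact conditional binomial intervals, shares exact Clopper-Pearson intervals, and levels Poisson intervals, all at 95%. Sums of 0 took a floor of 3 UMIs. Intervals ignore spread between cells and animals; cells of 1 library are not replicates. The interval was run on simulated Poisson counts, which lack spread between cells, so that run checks the calculation only. Doublets were scored with scrublet in scanpy 1.11.5 (score limit 0.2), were kept, and were left out as an alternative. Oligodendrocyte-like cells had Mog, Mag, Ermn, Opalin and Cldn11 at 4 UMIs and 0.15% or more. Python 3.11.15 and edgeR 4.0.16 (TMM factors only) were used.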

Additional observations from a re-analysis of the deposited data

Results flagged for a closer look

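Genes of normal astrocyte function, summed over the homeostatic list, lay on opposite sides of 0 in the libraries. The log2 ratio of Gfap-detected over Gfap-undetected cells was -0.23 (-0.27 to -0.20) in metastasis and 0.049 (0.025 to 0.074) in naive. The median over the 26 genes was below 0 in both, at -0.43 in metastasis and -0.10 in naive. Interferon response genes did so too, at 0.96 (0.81 to 1.11) in metastasis and -0.36 (-0.67 to -0.05) in naive, with medians over the genes counted of 1.16 in metastasis and -0.03 in naive. With 1 library per group the difference between the libraries was not tested.

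Gfap also appeared outside the astrocyte-like cells. Among kept barcodes that the limits did not admit, 145 of 13152 in metastasis had at least 4 Gfap UMIs, which is 1.10% (0.931 to 1.30%), against 50 of 12539 in naive, 0.399% (0.296 to 0.525%). Of these, 125 in metastasis and 48 in naive were at or over the limit on ependymal genes. The limits therefore left out more barcodes with at least 4 Gfap UMIs than the 11 and 4 they admitted.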

How the results depend on the processing

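No paired analysis was possible because each group is 1 library and the labels give no replicate numbers. The planned automatic doublet limit was not run as an alternative, since it lay above every score in metastasis. A score limit of 0.2 took its place, chosen after seeing the data, as were the settings on limit genes at 0.5%, mixed markers, cells with 4 or more Gfap UMIs and free RNA from 100 to 300 UMIs. The median of the pan-reactive list could not be given, since Vim alone reached 20 UMIs.

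The Gfap-detected share was 13.5% in metastasis and 8.24% in naive with at least 2000 UMIs per barcode, 2.70% and 1.30% with at least 2 Gfap UMIs, and 4.72% and 3.37% at 1000 UMIs. The counts of 374 higher and 273 lower genes in metastasis became 168 and 93 with at least 2 Gfap UMIs, 32 and 35 at 1000 UMIs, 125 and 58 with at least 50 UMIs per gene, and 2131 and 1255 with at least 1. Higher genes were 132 with the limit genes at 0.5% and 191 without cells of 4 or more Gfap UMIs, and lower genes were 178 without doublets. These settings test fewer genes or cells, or more genes.

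The 21 genes higher with Gfap in both libraries became 12 with 2000 UMIs per barcode, 154 with at least 2 Gfap UMIs, 73 at 1000 UMIs, 9 under TMM, 44 with equal weight per cell, 37 with free RNA subtracted, 4 with 50 UMIs per gene, 370 with 1 UMI, 1 with 10 CPM added, 32 without doublets, 13 with the limit genes at 0.5% and 41 with the second free RNA band. The 107 lower genes became 60 at 1000 UMIs, 32 with 50 UMIs per gene and 34 with 10 CPM added. Both counts thus depended on these settings, and the cause was not tested.

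The homeostatic median of -0.44 was -0.66 with 2000 UMIs, -0.40 with at most 10% mitochondrial UMIs, -0.57 with at least 2 Gfap UMIs, -0.49 with ependymal genes under 0.1%, -0.34 at 1000 UMIs, -0.60 under TMM, -0.23 with equal weight, -0.55 without doublets, 0.061 with the limit genes at 0.5%, -0.50 without mixed cells and -0.24 without cells of 4 or more Gfap UMIs.

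Single values that turned round were the microglia median (-0.34 with ependymal genes under 0.1%), Myoc in metastasis over naive (0.026 with the limit genes at 0.5%, 1.21 without cells of 4 or more Gfap UMIs, from 3 UMIs against 0 set to the floor), Ccnd2 (-0.0076 with at least 2 Gfap UMIs), and, with Gfap over without, Dpysl3 in metastasis (-0.25 at 1000 UMIs) and Cfap54 in naive (-0.14 with at least 2 Gfap UMIs, -0.014 at 1000 UMIs). Of the other single values, 382 moved by more than their counting interval without turning and 1952 did not.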
